A study of Saccharomyces cerevisiae with 4 samples.

Results

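The genes described here encode the proteins of the small subunit of the cytosolic ribosome of Saccharomyces cerevisiae. They were chosen by name, as every gene called RPS followed by a number and, for duplicated genes, the letter A or B. The reference gene table holds 56 such genes, 8 single-copy genes and 24 pairs of paralogues. The array table had a row for 55 of them, and 51 had a log ratio on all 4 arrays, out of 4730 genes with a complete set of values among 6172 genes and unmatched features. RPS22B had values on 3 arrays, RPS8A, RPS19A and RPS30A had a row and no value, and RPS14A was not analysed here.

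All RNA came from an rlm1 mutant, a strain mutated in the transcription factor that the cell wall integrity pathway acts on, so treated and untreated cells share that mutation and the arrays hold no wild-type RNA. Cells exposed for 3 hours to Zymolyase 100T, a glucanase preparation that digests the yeast wall, at 5 units per ml were compared with the untreated part of the same culture, both grown in YEPD, a rich medium, at 24 °C. The series has 2 cultures, and each was hybridised on 2 two-colour arrays with the dyes exchanged, so 4 arrays stand for 2 cultures. RNA of zymolyase-treated cells was labelled with Cy3 for arrays 1 and 3, and with Cy5 for the other two.

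As background, the small subunit carries the decoding centre, where the codon of the messenger meets its transfer RNA, together with the channels through which the messenger enters and leaves. Yeast makes ribosomal proteins in nearly equal amounts, and their genes are driven as one group by Rap1, Fhl1 with its partner Ifh1, and Sfp1, under the TOR and protein kinase A pathways. These genes are known to be turned down in many stresses of wild-type yeast. Most of the pairs stem from an ancient duplication of the whole genome, and their members encode proteins that are identical or nearly so.

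Each value is the log ratio of the array's channels as deposited, read as log2, and the values of arrays 2 and 4 were multiplied by -1 so that positive means more RNA with zymolyase. The sources used here give neither the log base nor the numerator. The genes with the largest means fix the reading only as likely: HSP12, a membrane stress protein gene, had deposited values of 3.22 and 2.52 on arrays 1 and 3, against -3.09 and -2.17 on arrays 2 and 4, and RTC3, HXT1, DDR2 and NFG1 changed sign in the same way. Reading HSP12 as higher in zymolyase makes the ratio Cy3 over Cy5. The opposite reading would turn the sign of every value below. RLM1 had no value on any array. Array 2 was the widest, with an SD over features of 0.63, against 0.32 to 0.35 on the others, and it lacked a value for 1394 features, against 550 to 664. Signal intensities were not analysed here, so the distance from background is not known, and precision rests on the number of arrays.

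With zymolyase, small subunit genes had slightly lower ratios as a group, and no single gene passed the test. Of the 51 genes, 49 had a mean below 0, and the median log2 ratio was -0.15, a fold of 0.901. The quartiles of the 51 were -0.26 and -0.072. Over all 4730 genes the median was -0.012, the quartiles were -0.14 and 0.11, and 52.6% had a mean below 0. RPS4A, at 0.0086 ± 0.22, and RPS23B, at 0.032 ± 0.16 (SD, n = 4 arrays), were the 2 with a mean above 0. In bulk RNA, less RNA of these genes in each cell and fewer cells that make it cannot be told apart, and a two-colour ratio shows a share of the total RNA only.

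In limma's test of the 2 culture means against 0, with Benjamini-Hochberg adjustment over all genes, 0 of the 51 passed an adjusted p of 0.05, against 3.15% of all genes tested (2.35% higher and 0.803% lower). At an unadjusted p under 0.05, 9 of the 51 were lower and 0 higher, against 6.43% and 6.07% of all genes. This p used the same standard error for every gene, so a gene's own spread did not enter it. In each of these 9 genes the SD over arrays exceeded the size of the mean. That SD also holds dye differences, which cancel in the mean where they are equal, so it is not the error of the mean. In a limma fit of 4 arrays with a dye term 0 of 51 passed as well, against 1.63% of all genes. The adjusted p values of the 51 began at 0.12. Limma gave every gene one standard error, 0.16, and the smallest mean it called was 0.51, which no small subunit gene reached. Without array 4, 16 of the 51 passed as lower, but so did 12.7% of all genes, with another 8.84% higher and 21.6% in all. Array 2 is then alone in its orientation, and the spread comes from arrays 1 and 3. Were the deposited ratios turned for the dyes by the authors, the median of the 51 would be 0.086 in place of -0.15. The median of all genes would then be -0.011. On that reading 3 of the 51, or 5.88%, would pass as higher, against 4.55% of all genes. As lower, 0 would pass, against 2.14%.

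The median of the 51 genes was below 0 on each array, at -0.075 and -0.057 on arrays 1 and 3, against -0.28 and -0.18 on arrays 2 and 4. The genes below 0 numbered 33, 40, 36 and 46 of the 51 for arrays 1 to 4 in turn. Those of all 4730 genes numbered 2568, 2201, 2539 and 2498. The medians of all genes were -0.026, 0.068, -0.025 and -0.017 in the same order. Genes at large therefore had medians slightly below 0 as well, except for array 2. The shift of the 51 was larger on the arrays with zymolyase RNA in Cy5, also when set against these medians. The mean of arrays 1 and 3 was below 0 for 36 of the 51, against 53.5% of all genes, and that of arrays 2 and 4 for 46, against 49%. Both orientation means were below 0 for 31 of the 51, against 21.8% of all genes. Without array 2 the median was -0.12, against -0.026 over all genes.

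**Figure D1:**
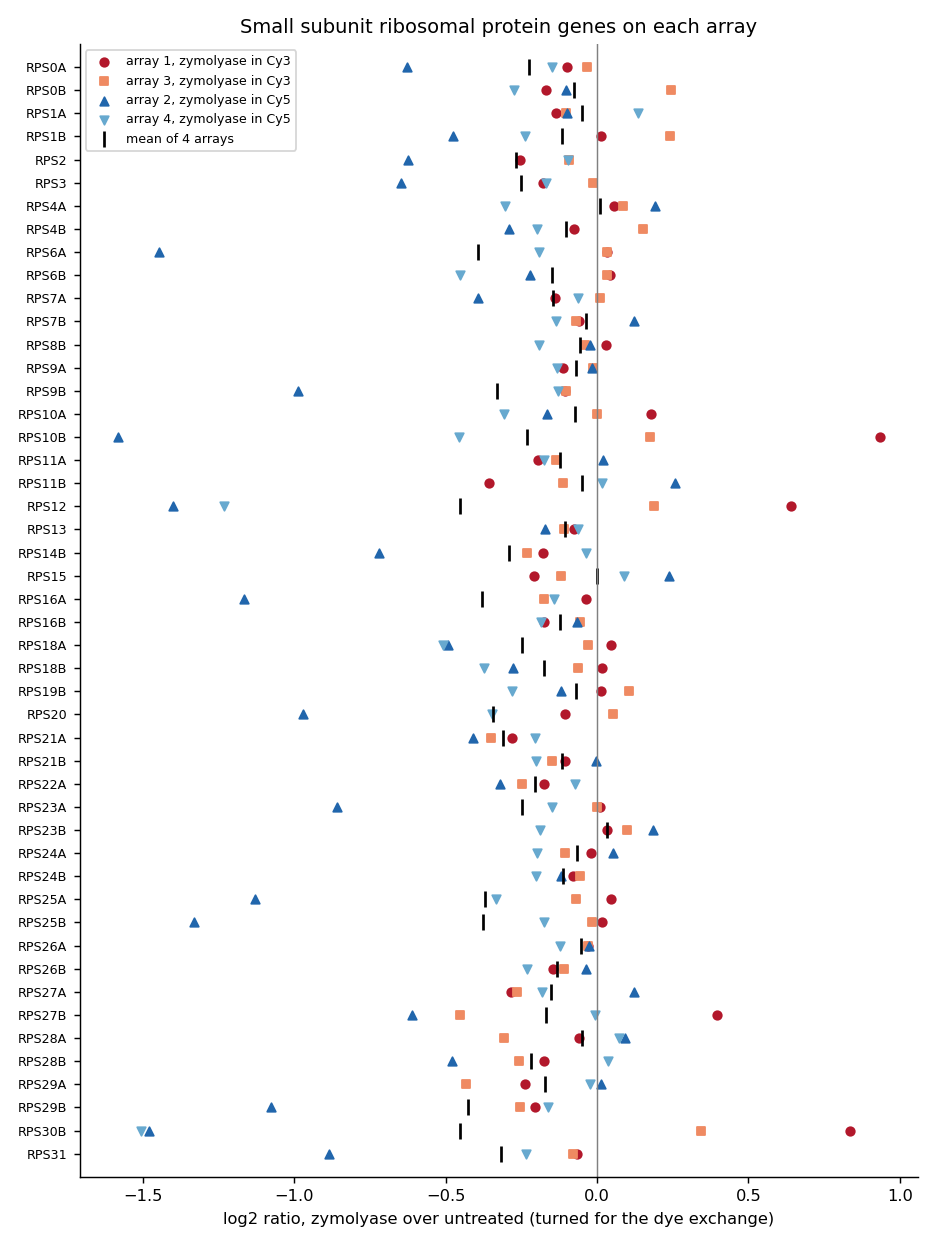
Log2 ratio of zymolyase over untreated cells (horizontal axis) for 48 of the 51 small subunit genes with complete values (rows), after turning arrays 2 and 4; symbols mark the 4 arrays and the black bar their mean. The bars lie between -0.45 and 0.032, array 2 supplies most values below -0.5, and RPS10B, RPS12 and RPS30B spread widest.

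On all 4 arrays, 18 of the 51 genes had a ratio below 0, against 8.79% of all genes, and 0 of the 51 had one above 0, against 7.99%. Among the 18 were RPS0A, RPS2, RPS3, RPS9A, RPS9B, RPS13, RPS14B, RPS16A, RPS16B, RPS21A, RPS21B, RPS22A, RPS24B, RPS26A, RPS26B, RPS29B and RPS31. Their means ran from -0.42 to -0.052 and none passed the test. The mean was larger than its SD over arrays in 13 of the 51, against 15.2% of all genes. RPS21A had the most even shift among the larger ones: its ratio was -0.28 and -0.35 on arrays 1 and 3, against -0.41 and -0.21 on arrays 2 and 4, a mean of -0.31 ± 0.089 (SD, n = 4 arrays; limma adjusted p = 0.41).

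RPS30B and RPS12 had the largest means, and in neither did the orientations overlap or share a sign. RPS30B encodes a short protein of the small subunit. Its ratio was 0.84 and 0.34 on arrays 1 and 3, against -1.48 and -1.51 on arrays 2 and 4, which gave a mean of -0.45 ± 1.22 (SD, n = 4 arrays; limma adjusted p = 0.12). RPS12 encodes a protein of the beak of the subunit's head. Its ratio was 0.64 and 0.19 on arrays 1 and 3, against -1.40 and -1.23 on arrays 2 and 4, a mean of -0.45 ± 1.02 (adjusted p = 0.12). In both genes the SD exceeded the mean, but it holds the difference between the orientations and is not the error of the mean.

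The next largest means were set mainly by array 2. RPS29B, which encodes a small zinc-binding protein of the head, had -0.20 and -0.25 on arrays 1 and 3, against -1.08 and -0.16 on arrays 2 and 4. Its mean was -0.42 ± 0.44, and all 4 arrays were below 0 (adjusted p = 0.17). RPS6A encodes the protein that is phosphorylated downstream of TOR, and it had 0.034 on both arrays 1 and 3 and -1.45 and -0.19 on arrays 2 and 4. RPS16A, whose protein has a tail that reaches the transfer RNA, had -0.038 and -0.18 on arrays 1 and 3, against -1.17 and -0.14 on arrays 2 and 4. Leaving out array 2, with the orientations weighted equally, took the means to -0.20 for RPS29B, -0.078 for RPS6A and -0.12 for RPS16A, against -0.42, -0.39 and -0.38 with it. In 7 of the 51 genes 1 array lay far from the other 3, past Dixon's limit for 4 values, against 6.45% of all genes, and in 5 of these it was array 2, against 5.14%.

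Both RPS25 genes behaved alike in this respect. Their protein is known for its part in initiation on internal entry sites of viral RNAs. RPS25A had 0.047 and -0.069 on arrays 1 and 3, against -1.13 and -0.33 on arrays 2 and 4, and RPS25B had 0.017 and -0.018 on arrays 1 and 3, against -1.33 and -0.17 on arrays 2 and 4. Their means were -0.37 ± 0.53 and -0.38 ± 0.64 (adjusted p = 0.28 and 0.27), and without array 2 they were -0.17 and -0.087.

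The single-copy genes have no A or B paralogue. The probes are not known, so whether labelled cDNA of other genes reached their spots was not tested. All 8 had values on every array and a mean below 0, with a median of -0.26. RPS2 and RPS3, whose proteins line the entry channel, had means of -0.27 ± 0.25 and -0.25 ± 0.27, and both were below 0 on all 4 arrays, lowest on array 2 at -0.62 and -0.65.

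Further single-copy genes differed in how even they were across arrays. RPS13 encodes a protein of the subunit's body and had -0.077 and -0.11 on arrays 1 and 3, against -0.17 and -0.062 on arrays 2 and 4, a mean of -0.10 ± 0.048. RPS31 is translated as a fusion with ubiquitin, and it had -0.067 and -0.078 on arrays 1 and 3, against -0.89 and -0.23 on arrays 2 and 4, a mean of -0.32 ± 0.39. RPS15, whose protein is needed to export the precursor subunit from the nucleus, had -0.21 and -0.12 on arrays 1 and 3, against 0.24 and 0.090 on arrays 2 and 4. Its mean was -0.00025 ± 0.20, and the orientations had opposite signs. RPS20, a head protein gene, had -0.11 and 0.053 on arrays 1 and 3, against -0.97 and -0.35 on arrays 2 and 4 (mean -0.34 ± 0.45; adjusted p = 0.34).

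The dye exchange allows a second contrast, the part of the log ratio that follows the dye and not the treatment. It is the mean of the 4 deposited values, in which a treatment effect of the same size on every array cancels. An effect that is larger on 1 array cancels only in part. A positive value means more signal in Cy3 than in Cy5 on the reading used here. RPS30B, RPS12 and RPS10B stood out in this contrast. RPS30B had deposited values of 0.84 and 0.34 on arrays 1 and 3, against 1.48 and 1.51 on arrays 2 and 4, so that Cy3 exceeded Cy5 on every array whichever RNA it carried. RPS12 had 0.64 and 0.19 on arrays 1 and 3, against 1.40 and 1.23 on arrays 2 and 4, and RPS10B, which encodes another protein of the beak region, had 0.94 and 0.17 on arrays 1 and 3, against 1.58 and 0.45 on arrays 2 and 4.

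The dye contrast was 1.04 ± 0.56 for RPS30B, 0.87 ± 0.56 for RPS12 and 0.79 ± 0.62 for RPS10B (SD, n = 4 arrays), which ranked 9, 17 and 33 from the top of 4730 genes. In limma, with the same model as for the treatment, the adjusted p was 7.7e-08, 2.5e-05 and 0.00017. Each p rests on the same standard error, 0.16, for every gene and not on the SD of that gene. RPS30B, RPS12 and RPS10B were 3 of the 51 small subunit genes, or 5.88%, all above 0. Of all genes, 6.68% passed, 4.55% above 0 and 2.14% below 0, so the share of the small subunit genes lay near that of all genes. In the fit with a dye term, which counts 4 arrays as 4 replicates although they come from 2 cultures, RPS30B and RPS12 passed (adjusted p = 0.014 and 0.021), against 0.423% of all genes above 0, and RPS10B did not (0.082). Leaving out array 1 or array 2 left 0 of the 51 past the test, against 10 and 0 of all 4730 genes. The 0 of 51 is therefore not particular to small subunit genes. The contrasts were then 0.92 and 1.05 for RPS30B, 0.75 and 0.82 for RPS12 and 0.60 and 0.50 for RPS10B. Without array 3 these 3 genes still passed, with contrasts of 1.16, 0.98 and 0.98, against 27 of all genes. Leaving out array 4 left 13, all above 0, against 18% of all genes above 0, 16.8% below 0 and 34.8% in all. If the deposited ratios were already turned, these contrasts would be the zymolyase effects of these genes.

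**Figure D2:**
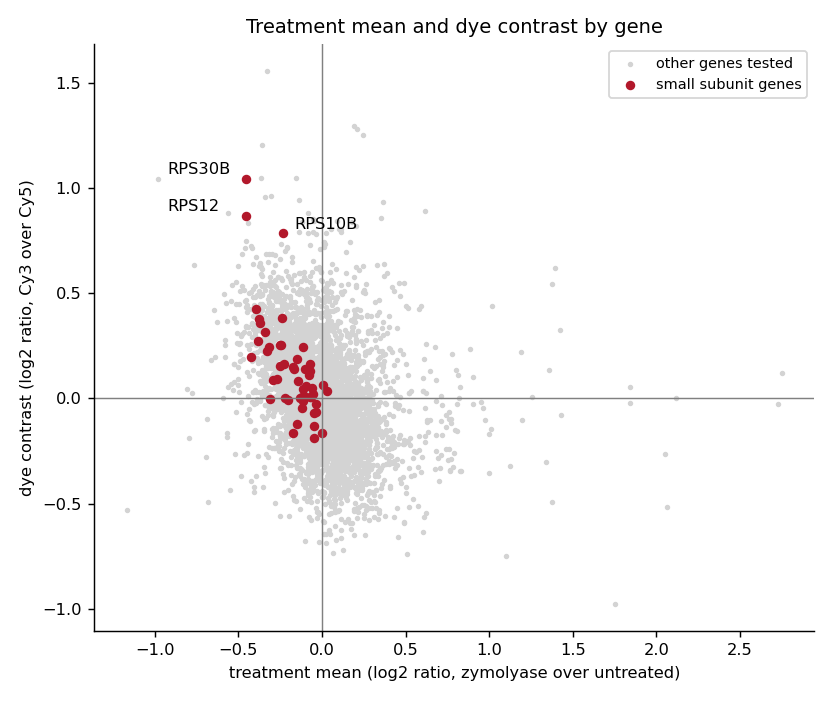
Mean log2 ratio of zymolyase over untreated cells (horizontal axis) against the dye contrast, Cy3 over Cy5 (vertical axis, log2), for 51 small subunit genes (red) and the other genes tested (grey). The small subunit genes lie left of or close to 0 on the horizontal axis, and RPS30B, RPS12 and RPS10B lie highest among them.

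The other small subunit genes had smaller dye contrasts, between -0.19 and 0.43, and none passed. RPS6A (0.43 ± 0.68) and RPS25B (0.38 ± 0.64) were among those that followed, with limma adjusted p of 0.089 and 0.15. Both contrasts were set mainly by array 2, and without it they were 0.11 and 0.087. The median over the 51 was 0.086, against -0.011 over all genes, and 39 of the 51 were above 0, against 47.9%. The orientations did not overlap, with arrays 1 and 3 above arrays 2 and 4 after turning, in 21 of the 51, against 26.7% of all genes, and the other way round in 6, against 30.3%. The deposited ratio was above 0 on all 4 arrays in 9 of the 51, against 12.7% of all genes. It was below 0 on all 4 in RPS11B, RPS15 and RPS28A, or 5.88%, against 15.8%, and RPS15 had a contrast of -0.16 ± 0.070.

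The arrays were also compared across the small subunit genes. Over the 51 genes, turned arrays of the same orientation had an r of 0.49 for arrays 1 and 3 and of 0.47 for the other two, and turned arrays of opposite orientation correlated between -0.72 and -0.25. Over all 4730 genes r was 0.60 for arrays 1 and 3 and 0.44 for arrays 2 and 4, near the values of the 51, and the opposite pairs lay between -0.13 and 0.051. Without the turning of arrays 2 and 4, which is only likely, the signs of the opposite pairs would be reversed and the treatment and the dye would change places. Leaving out RPS30B, RPS12 and RPS10B, a set chosen after its values were seen, gave 0.23 and 0.19 for the same orientation and -0.50 to -0.020 for opposite orientation. These correlations run across genes that share arrays, dyes and RNA and do not replicate each other, and they were not tested.

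The paralogue pairs were compared as the A minus B difference of the log2 ratio on each array. Both members had complete values in 19 of the 24 pairs. The sources used here do not give the probes of the arrays, and near-identical pairs may share labelled cDNA, so the members of a pair are uncertain as separate measurements. Of the 19 pairs, A had the higher mean in 11 and B in 8, and the median size of the mean difference was 0.14. The mean difference stayed within its SD over arrays in 17 pairs. An exact sign permutation over 4 arrays can give no p below 1 in 8, so the pairs were not tested singly.

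Array 2 held the largest difference in 18 of the 19 pairs. The median size of the difference was 0.11 and 0.088 on arrays 1 and 3, against 0.52 and 0.11 on arrays 2 and 4. Set against the SD of all genes on the same array, this came to 0.34 and 0.28 on arrays 1 and 3, against 0.84 and 0.34 on arrays 2 and 4, so the pairs differed more on array 2 also in proportion to its wider scale. The part of that array in each difference was not tested beyond leaving it out.

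The 5 pairs with the largest mean difference all took it from array 2. RPS23 encodes a protein of the decoding centre, and A minus B was -0.021 and -0.099 on arrays 1 and 3, against -1.04 and 0.040 on arrays 2 and 4, a mean of -0.28 ± 0.51. RPS9, whose protein affects the accuracy of decoding, had -0.0066 and 0.088 on arrays 1 and 3, against 0.97 and -0.0055 on arrays 2 and 4 (mean 0.26 ± 0.48). RPS16 had 0.14 and -0.12 on arrays 1 and 3, against -1.10 and 0.043 on arrays 2 and 4 (mean -0.26 ± 0.57). In each of these the other 3 arrays held differences of both signs.

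RPS29 and RPS6 followed the same course. A minus B was -0.033 and -0.18 on arrays 1 and 3, against 1.09 and 0.14 on arrays 2 and 4 for RPS29 (mean 0.25 ± 0.57), and -0.0091 and 0.0023 on arrays 1 and 3, against -1.22 and 0.26 on arrays 2 and 4 for RPS6 (mean -0.24 ± 0.67). Without array 2, and with the orientations weighted equally, the differences of the 5 pairs in the order given were -0.010, 0.018, 0.026, 0.016 and 0.13.

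RPS21 and RPS26 were the 2 pairs with one sign on all 4 arrays. RPS21 encodes a protein needed for the last steps of rRNA maturation, and A minus B was -0.18 and -0.20 on arrays 1 and 3, against -0.41 and -0.0031 on arrays 2 and 4 (mean difference -0.20 ± 0.17). Without array 2 it was -0.096. RPS26 encodes a protein of the messenger's exit channel, and A minus B was 0.11 and 0.080 on arrays 1 and 3, against 0.011 and 0.11 on arrays 2 and 4, a mean of 0.079 ± 0.048. RPS26 was chosen after its values were seen.

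**Figure D3:**
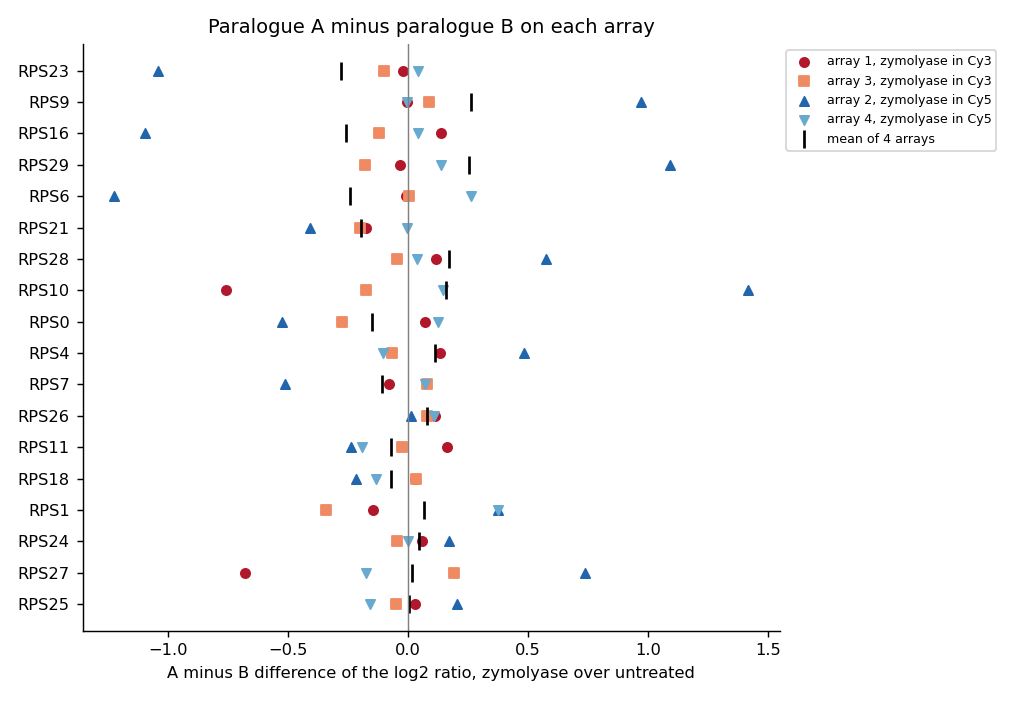
A minus B difference of the log2 ratio (horizontal axis, zymolyase over untreated) for 18 of the 19 paralogue pairs with complete values (rows, by size of the mean difference); symbols mark the 4 arrays and the black bar their mean. Array 2 holds the outermost symbol in 17 of these 18 pairs, up to 1.42 for RPS10.

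The smallest mean differences came in 2 forms. RPS25 and RPS24 had small differences on each array, with means of 0.0055 ± 0.15 and 0.046 ± 0.094 and no value larger than 0.20. RPS27, a pair of zinc-binding proteins, had a mean of 0.018 ± 0.60 that joined opposite values, with -0.68 and 0.19 on arrays 1 and 3, against 0.74 and -0.17 on arrays 2 and 4. RPS27B was the less even member, at 0.40 and -0.45 on arrays 1 and 3, against -0.61 and -0.0072 on arrays 2 and 4, whereas RPS27A had -0.28 and -0.26 on arrays 1 and 3, against 0.12 and -0.18 on arrays 2 and 4.

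In the deposited values, before any turning, 5 pairs kept one sign on all 4 arrays, among them RPS1, RPS10 and RPS29 with B over A in Cy3 relative to Cy5 and RPS18 with A over B. For RPS1 the A minus B dye difference was -0.31 ± 0.11 (SD, n = 4 arrays), while its A minus B treatment difference was 0.064 ± 0.37. For RPS18 the dye difference was smaller, at 0.10 ± 0.089. RPS10 had the largest dye difference, at -0.62 ± 0.60. These pairs were chosen after their values were seen and were not tested.

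RPS14B and RPS22A are direct neighbours on the genome and had treatment means of -0.29 and -0.20, both below 0 on all 4 arrays. RPS22B, measured on 3 arrays, had 0.35 and -0.028 on arrays 1 and 3, against -1.51 on array 2.

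As over all genes, medians below 0 were found for other genes of the ribosome and of translation. None of them passed the treatment test: 0 of 78 large subunit genes, 0 of 29 mitochondrial small subunit genes, 0 of 66 genes of the small subunit processome and 40S assembly, 0 of 25 initiation and translation factors that work on the small subunit and 0 of 18 regulators of ribosomal protein genes, against 3.15% of all genes. Their medians were -0.12, -0.081, -0.11, -0.078 and -0.025 in that order, against -0.15 for the small subunit genes and -0.012 for all genes. Only the large subunit genes shared with the small subunit genes a median below 0 on every array, at -0.075 and -0.089 on arrays 1 and 3, against -0.089 and -0.15 on arrays 2 and 4, with 72 of 78 means below 0. The assembly genes had -0.038 and 0.078 on arrays 1 and 3, against -0.27 and -0.26 on arrays 2 and 4. The regulators had medians of 0.055 and 0.061 on arrays 1 and 3, against -0.11 and -0.18 on arrays 2 and 4. The differences between the lists were not tested.

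Some of these genes passed the test of the dye contrast. They numbered 5 of 78 large subunit genes, 1 of 29 mitochondrial ones, 3 of 66 assembly genes, 1 of 25 translation factors and 3 of 18 regulators, all above 0, against 4.55% of all genes above 0 and 6.68% in all. The largest of each list, named after the values were seen, was 0.72 ± 0.42 for RPL38, 0.53 ± 0.32 for RSM18, 0.65 ± 0.61 for the processome gene UTP6, 0.48 ± 0.45 for SUI3, a subunit of the factor that brings the initiator transfer RNA, and 0.58 ± 0.39 for MRS6, whose protein binds Sfp1. IFH1, the coactivator of ribosomal protein genes, had a dye contrast of 0.57 ± 0.41 (adjusted p = 0.015) and a treatment mean of -0.19 ± 0.74 (adjusted p = 0.72).

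**Figure D4:**
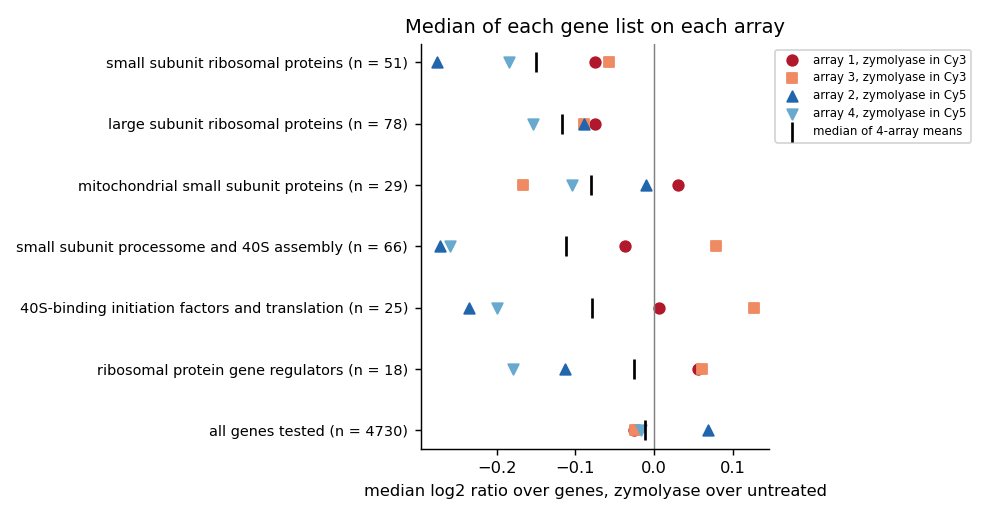
Median log2 ratio of zymolyase over untreated cells (horizontal axis) of each gene list (rows, number of genes tested in brackets) on each of the 4 arrays, with the median of the 4-array means as a black bar. Small subunit genes lie below 0 on every array, from -0.28 to -0.057, and all genes tested lie between -0.026 and 0.068.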

How the data were processed

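The authors deposited, for each feature of an array, 1 log ratio of its channels, taken here as log2. The sources used here do not give scanner, background correction, normalization or the rule for blanks. Of 6209 features, the 2 controls were left out, 5711 matched a gene of the R64 table (57 through a former name), and 496 stayed unmatched. Features of 1 gene were averaged (34 genes). The reference served for names and neighbours only.

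Arrays 2 and 4 were multiplied by -1. No label assigns arrays to cultures, so limma 3.58.1 in R 4.3.3 (lmFit, eBayes) was run on culture means under both possible pairings, over 4730 genes, and the larger Benjamini-Hochberg adjusted p is given throughout. The dye contrast was tested likewise on the mean of a culture's deposited values. With 2 cultures, limma estimated an infinite prior, so the test amounts to a minimum size. The SD over 4 arrays mixes dye, technical and culture differences. The fits were tested on simulated data.

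Genes were named by rule: those past a test, the 8 largest treatment means, all 8 single-copy genes, the 6 pairs with the largest and the 3 with the smallest A minus B difference, the 6 largest dye contrasts, and in other lists those past the treatment test; others are described for their dye contrast or place. A few genes under this rule are not reported by name here and are left out of the plots that name genes, but stay in every count and median. Members and lists were chosen with earlier results of these data known. Alternatives were a dye term on 4 arrays, median centring, scaling to 1 spread, values on at least 3 arrays, each array left out, and ratios taken as already turned.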

Additional observations from a re-analysis of the deposited data

Results flagged for a closer look

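On array 2, 5 of the 29 named small subunit genes lay far from their values on the other 3 arrays: RPS6A at -1.45, RPS9B at -0.99, RPS16A at -1.17, RPS25B at -1.33 and RPS29B at -1.08, as log2 ratios of zymolyase over untreated cells. These 5 were named for a large mean or A minus B difference, which a far value on array 2 can itself produce. The 5 of 29 can therefore not be set against the rate among unselected genes. Over all 51 small subunit genes array 2 lay far from the others in 5, or 9.8%, against 5.14% of all genes, and the genes share their arrays. Without array 2, and with the orientations weighted equally, the means of these genes were -0.078, -0.12, -0.12, -0.087 and -0.20. The same array had the widest log ratios over all genes, with an SD of 0.62 over the 4730 genes tested, against 0.31 to 0.34 on the others. The cause was not tested.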

How the results depend on the processing

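Taking the deposited ratios as already turned reversed the median of the 51 genes to 0.086, against -0.011 over all genes. It let 3 genes pass as higher in place of 0: RPS30B at 1.04, RPS12 at 0.87 and RPS10B at 0.79. These were 5.88% of the 51, against 4.55% of all genes passing as higher on that reading. With 1 array left out, the number past the treatment test ran from 0 to 16, that past the dye contrast test from 0 to 13, the treatment median from -0.15 to -0.12, the median dye contrast from 0.046 to 0.13, and the median size of the A minus B difference from 0.052 to 0.30. The 16 and the 13 came without array 4. Centring, scaling, a dye term and values on at least 3 arrays left 0 genes past the treatment test and 2 or 3 past the dye contrast test, RPS10B being lost in all of these but centring. Scaling reduced the median size of the A minus B difference to 0.083, against 0.14. Over all genes, 149 passed the treatment test (111 higher, 38 lower), against 77 with a dye term, 69 after scaling (61 higher, 8 lower), 82 with values on at least 3 arrays, 316 if already turned and 33, 7, 41 and 1020 without arrays 1 to 4. The dye contrast test gave 316, against 20 with a dye term, 11 after scaling, 17 with at least 3 arrays, 149 if already turned and 10, 0, 27 and 1647 without arrays 1 to 4. No paired analysis was possible because the arrays form 1 group, in which each ratio already holds both conditions of a culture. Signal over background is unknown.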
